A study of Mus musculus with 8 samples.

Results

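The 40 genes described here encode nucleolar proteins and enzymes of ribosome biogenesis, with ornithine decarboxylase and spermidine synthase, enzymes of the polyamine pathway that serves growing cells. They were taken by symbol from a named list, and each symbol matched 1 Ensembl gene, so that 40 of the 50686 genes of the count table were members and none was missing. RNA was sequenced in bulk from thymic group 2 innate lymphoid cells (ILC2), lymphocytes that make type 2 cytokines, of C57BL/6 mice of the plck-Id1 genotype, whose transgene drives the E protein inhibitor Id1 from the proximal Lck promoter. Sorted GFP-positive cells carried the retroviral vector MIGR1 with GFP alone, called GFP cells here, or with GFP and E47-ER, a fusion of the E protein E47 to the estrogen receptor whose activity depends on 4-hydroxy-Tamoxifen. The culture of all groups held IL-33, IL-25 and IL-7, all received 4-hydroxy-Tamoxifen for 4 or 16 h, and each of the 4 groups held 2 libraries. The age of the mice is not given in the sources used here, nor do the labels name separate animals or cultures for the replicates, and the p-values then reflect the variation of these 8 libraries alone, part of which may be technical. No E47-ER library without the drug was analysed, so a response to E47 activity and a difference that was present before the drug cannot be told apart.

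Ribosome biogenesis begins in the nucleolus, where RNA polymerase I transcribes a long precursor of the ribosomal RNAs. Small nucleolar ribonucleoproteins (snoRNPs) of the box C/D type methylate this precursor and those of the box H/ACA type convert uridines in it to pseudouridine, while many assembly factors cleave and fold it into the small and the large ribosomal subunit. The pathway takes much of the energy of a dividing lymphocyte, and many of its genes are known targets of MYC, a transcription factor that binds the E-box CACGTG. E proteins such as E47 bind E-boxes of the form CANNTG, among them CAGCTG and CAGGTG.

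The libraries held 8813782 to 18677675 counts, of which the members took 0.375 to 0.555%. Levels are given as CPM, counts scaled to a common library total after trimmed-mean (TMM) scaling, with replicate 1 before replicate 2. The fusion carries sequence of Tcf3, the gene of E47, and of Esr1, the estrogen receptor gene. Tcf3 was at 79.3 and 81.3 CPM in GFP cells against at 150.3 and 162.8 CPM in E47-ER cells at 4 h, and at 87.5 and 67.5 against 145.9 and 169.7 CPM at 16 h. Esr1 was at 0.931 CPM or less in every GFP library and at 43.8 CPM or more in every E47-ER library. Id1 was at 36.8 and 23.6 CPM in GFP cells against 66.4 and 59.8 in E47-ER cells at 4 h, and at 29.99 and 13.8 against 81.3 and 67.6 CPM at 16 h. All 12 ILC2 marker genes exceeded 1 CPM in every library, and their summed level was 25010 to 31530 CPM in GFP cells against 20890 to 21210 CPM in E47-ER cells at 16 h, and 25270 to 27520 against 22570 to 22940 CPM at 4 h. Il13, Il5 and Il2ra were the largest parts of this sum in each library, and all of them were lower with E47-ER at both times. Id2, Rora and Il17rb were higher with E47-ER at both times, and Icos was higher at 4 h only. The sum therefore does not stand for every marker on the list. Among markers of other cells, 4 of 9 T cell genes averaged over 1 CPM, led by Cd28 at 47.3 to 84.7 CPM and Cd3e at 26.0 to 38.3 CPM, while Cd8a and Cd8b1 were at 0.0719 CPM or less. The summed T cell level was 104 to 118.4 CPM in GFP against 114.5 to 115.2 CPM in E47-ER cells at 4 h, and 85.9 to 101.2 against 105.2 to 118.3 CPM at 16 h. Of 6 B cell genes 1 averaged over 1 CPM, Cd79b, at 5.75 to 12.9 CPM. Of 8 myeloid genes 2 did, Adgre1 at 1.99 to 5.11 and Itgam at 1.26 to 3.86 CPM, with S100a9 at 0 and Lyz2 at 0.128 CPM or less. The summed myeloid level was apart between the groups at both times, 4.43 to 6.12 CPM in GFP against 8.12 to 8.88 CPM in E47-ER cells at 4 h and 4.79 to 6.24 against 7.60 to 9.05 CPM at 16 h. Summed over its list of 4 genes, the thymic epithelial level, nearly all of it Epcam, with Foxn1 at 0, was 5.11 to 7.07 CPM in GFP and 10.3 to 13.8 CPM in E47-ER cells at 4 h, and 5.97 to 9.04 against 20.7 to 22.6 CPM at 16 h. Summed natural killer and ILC1 markers, nearly all of them Gzma, were at 3049 to 3531 against 5297 to 7910 CPM at 4 h and at 2915 to 7505 against 6404 to 7930 CPM at 16 h, while Ncr1, Eomes, Tbx21 and Klrb1c were at 0.144 CPM or less. The part of these markers in the results below was not tested.

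Replicate 2 of GFP cells at 16 h was unlike the other 7. It had the fewest counts, a TMM factor of 0.854 against 1.01 to 1.03, and a mean correlation of log2 CPM with the others of 0.954 against 0.980 to 0.983. Within the members, its difference from replicate 1 moved with summed exon length. Among the 20 members with the shortest summed exons, of at most 3553 bases, the median log2 difference of replicate 2 from replicate 1 was 0.31 and 12 were higher in replicate 2. Among the 20 longest the median was -0.16 and 4 were higher. Nhp2, a short gene of 1146 exonic bases, was at 112.3 and 196.2 CPM in the 2 libraries. Mybbp1a, of 5803 exonic bases, was at 182.1 and 67.5 CPM. Pearson's r between this difference and log2 exon length was -0.478 over the 40 members and -0.335 over all genes tested, a description across genes, which are not independent replicates. Calls at 16 h are therefore given with it and without it. Without it, GFP cells at 16 h are 1 library, which is assumed to vary like the other groups.

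**Figure D1:**
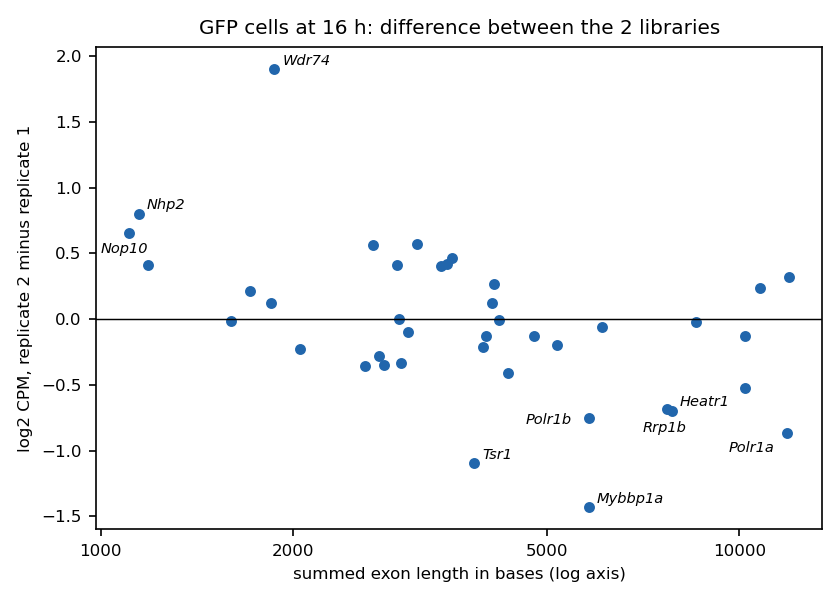
Difference in log2 CPM between the 2 libraries of GFP cells at 16 h (replicate 2 minus replicate 1, y axis) against summed exon length in bases (log x axis), 1 point for each of the 40 members. Of the 20 shorter members 12 lie above 0, among them Nhp2, and of the 20 longer ones 4 do, among them the longest, Wdr12, while Mybbp1a and Polr1a lie below 0. Wdr74, at 4.39 CPM or less in every library, is the highest point.

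The members were abundant. Per kilobase of exon, the median member was at 16.6 CPM over the 8 libraries and the median of all genes tested was at 4.91 CPM, with 35 of the 40 members above that median and 6 in the top 10%. Npm1, which encodes the nucleolar chaperone nucleophosmin, had the highest level, 310.6 CPM per kilobase. Wdr74, a factor of large subunit maturation, had the lowest, 0.854 CPM per kilobase, on 10 to 33 counts a library, so that its values carry large counting error. Of the members, 18 have exons that overlap a gene on the opposite strand. The strand setting of the counting is not given in the sources used here, so reads of the members and of these partners cannot be told apart. Among the genes the 16 h results turn on, these are Mettl1 (partner Eef1akmt3), Dkc1 (Mpp1), Npm3 (the antisense gene Gm15491) and Nhp2 (Rmnd5b), whereas Srm, Fbl and Nop16 overlap no annotated exon of another gene. Near-identical copies were found among the annotated transcripts of other genes for 7 members, and unannotated sequence was not searched. Counts assigned to these genes came to 1.83% of those of Odc1, 0.42% of those of Npm1 and at most 0.09% of those of the others.

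The promoter E-boxes of the members are shown here because the cells differ in an E protein and because the pathway is a known target of MYC. Promoter windows from 250 bases before to 50 after the annotated start (RefSeq, GRCm38.p6) were matched for 34 members. Rrs1, Fbl, Npm1, Srm, Rrp12 and Bop1 had none in the table. Both strands were searched, and CACGTG and CAGCTG read the same on each. CACGTG stood in the windows of 8 of the 34 members (23.5%), in those of 11.9% of the genes tested that have a window and in 7.15% of all windows. The 8 stretches follow, 5′ to 3′ on the strand of the gene, with CACGTG in capitals.
Mettl1 (chr10:127041952-127041977, plus strand): ctcggctctcCACGTGgactgcgtgg
Imp4 (chr1:34439698-34439723, plus strand): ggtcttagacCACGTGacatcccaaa
Mybbp1a (chr11:72441357-72441376, plus strand): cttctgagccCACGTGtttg
Nop2 (chr6:125131813-125131838, plus strand): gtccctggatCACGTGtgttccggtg
Pes1 (chr11:3963967-3963992, plus strand): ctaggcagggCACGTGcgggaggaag
Tsr1 (chr11:74898094-74898119, plus strand): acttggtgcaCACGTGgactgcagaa
Utp20 (chr10:88826765-88826787, minus strand): gcactaactaCACGTGaggaaaa
Wdr43 (chr17:71616222-71616247, plus strand): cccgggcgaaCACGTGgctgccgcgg

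The hexamers linked to E proteins were searched in the same windows. CAGCTG stood in 6 of the 34 (17.6%) and in 17.4% of the genes tested. CACCTG, or CAGGTG on the other strand, stood in 1 of the 34 (2.90%) and in 20.6% of the genes tested. That 1 member was Mettl1, which also holds CACGTG, and the stretch is shown because Mettl1 has the smallest p of the set at 16 h with all libraries, while Srm has it without replicate 2 of GFP cells at 16 h. The second line shows the CAGCTG of Pes1, whose window likewise holds both kinds of E-box, and the third that of Gar1, a box H/ACA gene.
Mettl1 (chr10:127041694-127041719, plus strand): acatcccgctCACCTGtggggcgcac
Pes1 (chr11:3963928-3963953, plus strand): agacagccctCAGCTGgcggcgtggg
Gar1 (chr3:129831483-129831508, minus strand): cacgcctcacCAGCTGttagcacgga
The CACCTG stretch of Mettl1 lies within the gene as GENCODE annotates it (127041414 to 127046365), although it is before the RefSeq start used here. A match is only a run of letters, and no binding was measured in these data.

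At 4 h no member was called between E47-ER and GFP cells. By edgeR's quasi-likelihood test with Benjamini-Hochberg adjustment, 0 of the 40 had an adjusted p under 0.05, where 0.0147% of all genes tested were called lower, and 1 member, Ppan, had an unadjusted p under 0.05. Without replicate 2 of GFP cells at 16 h the count stayed at 0 and the background was 1.68% lower. In a fit of the 4 libraries of this time alone it was 0 again, against 1.27%. DESeq2 called 0 as well. Log2 fold changes were below 0 in 36 members, and their median was -0.13, against -0.0043 over all genes tested. Relative to each gene's mean over the 8 libraries, the members' median log2 CPM was 0.148 and 0.001 in the GFP libraries. It was -0.018 and -0.077 in the E47-ER libraries, so GFP replicate 2 lay close to E47-ER replicate 1. Between the 2 GFP libraries the median difference was -0.16, with 4 of 40 members higher in replicate 2. That gap was larger in size than the shift between the groups. The libraries of the 2 groups did not overlap in 18 members, all of them lower in E47-ER cells, against 22.9% of all genes tested with that pattern. Because RNA was bulk, fewer cells of a kind and less RNA per cell cannot be told apart here or in any comparison below.

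The members with the smallest p at 4 h were Ppan, Npm3 and Nop16. Ppan, a factor of large subunit assembly, was at 37.5 and 33.6 CPM in GFP cells against 27.8 and 28.6 in E47-ER cells at 4 h, and at 38.6 and 35.2 against 26.8 and 23.7 CPM at 16 h. Its log2 fold change at 4 h was -0.33 (SE 0.138, edgeR adjusted p = 0.819). Both E47-ER libraries lay below both GFP libraries at each time. For Npm3 the value at 4 h was -0.34 (SE 0.173, edgeR adjusted p = 0.964) and for Nop16 -0.22 (SE 0.143, edgeR adjusted p = 0.99985). None of the 3 passed the test.

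At 16 h E47-ER cells had less RNA of 6 members than GFP cells, and no member was higher. The 6 were Mettl1, Srm, Npm3, Dkc1, Nop16 and Fbl. They are 6 of 40, where 0.337% of all genes tested were called lower and 1.25% higher. The members were chosen with earlier results of these data known, so such shares describe the list and are not an independent test. Without replicate 2 of GFP cells at 16 h, 31 of the 40 were lower and again none higher, where 4.53% of all genes tested were lower and 4.39% higher, and all 6 were among the 31. The median log2 fold change of the members was -0.54 with all libraries (quartiles -0.77 and -0.27) and -0.53 without that library (quartiles -0.69 and -0.40), where the median over all genes tested was -0.01 and 0.00. Values below 0 were found in 39 members with all libraries and in 40 without the 1. The libraries of the 2 groups did not overlap in 29 members, all lower in E47-ER cells, against 26.6% of all genes tested. With DESeq2 in place of edgeR, 17 members were lower with all libraries, the 6 among them, where 4.42% of all genes tested were. The count of calls rested on single libraries. With replicate 1 of GFP cells at 16 h left out in place of replicate 2, 24 members were lower and 3 higher (Polr1a, Mybbp1a and Tsr1), where 24.4% of all genes tested were lower and 24.3% higher. With any 1 of the other 6 libraries left out, or in a fit of the 4 libraries of 16 h alone, where 0% of all genes tested were lower, 0 members were called.

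**Figure D2:**
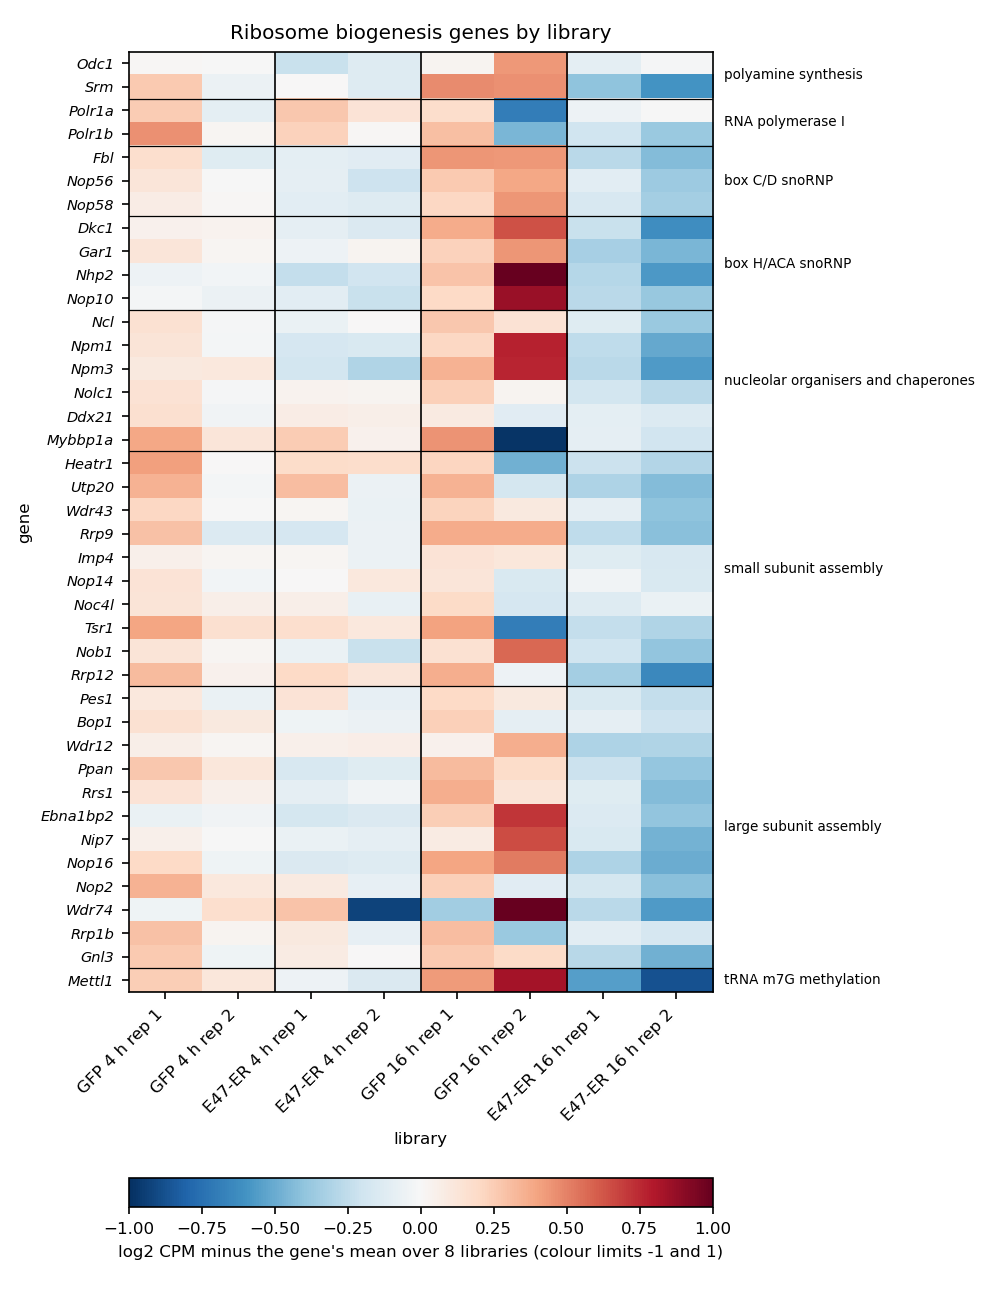
Log2 CPM of each of the 40 members (rows, grouped by role) in each of the 8 libraries (columns), as the difference from the gene's own mean over the libraries, with colours limited to -1 and 1. Most rows are red in GFP cells at 16 h and blue in E47-ER cells at 16 h, and replicate 2 of GFP cells at 16 h holds both the deepest reds, as in Nhp2, and deep blues, as in Mybbp1a.

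Mettl1, which encodes the catalytic subunit of the tRNA N7-methylguanosine methyltransferase, had the largest change of the 6. It was at 17.8 and 16.3 CPM in GFP cells against 14.5 and 13.7 in E47-ER cells at 4 h, and at 20.2 and 26.9 against 10.3 and 8.24 CPM at 16 h. Both E47-ER libraries lay below both GFP libraries at each time, and the gap was wider at 16 h. The log2 fold change at 16 h was -1.34 (SE 0.196, edgeR adjusted p = 0.0196), and -1.14 (SE 0.170, adjusted p = 9.37e-05) without replicate 2 of GFP cells. The gene lies on chromosome 10 (GRCm38, 127041414 to 127046365, plus strand).

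Of the 2 polyamine enzymes, Srm was called and Odc1 was not. Srm, spermidine synthase, was at 69.7 and 56.0 CPM in GFP cells against 58.4 and 53.4 in E47-ER cells at 4 h, and at 80.7 and 79.8 against 44.0 and 38.4 CPM at 16 h. The groups overlapped at 4 h and were well apart at 16 h, where the 2 GFP libraries were within 1 CPM of each other. Its log2 fold change at 16 h was -0.96 (SE 0.151, edgeR adjusted p = 0.0240), and -0.98 (adjusted p = 1.50e-05) without the library. Odc1, ornithine decarboxylase, which makes the first polyamine of the pathway, was at 429 and 423 and 364 and 388 CPM in GFP and E47-ER cells at 4 h, and at 433 and 573 and 398 and 421 CPM at 16 h. It was not called, with a value of -0.30 (SE 0.156, edgeR adjusted p = 0.267) at 16 h and -0.09 (SE 0.0916) without the library. Whether the effects on Srm and Odc1 differ was not tested. Srm lies on chromosome 4 (148591503 to 148594993, plus strand).

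RNA polymerase I subunit genes showed no call with all libraries. Polr1a, the largest subunit, was at 55.1 and 43.2 CPM in GFP cells against 55.8 and 50.7 in E47-ER cells at 4 h, and at 52.3 and 28.6 against 44.5 and 46.2 CPM at 16 h. The 16 h values of the 2 GFP libraries lay on either side of both E47-ER libraries, and the log2 fold change was 0.15 with all libraries and -0.21 without replicate 2 of GFP cells (edgeR adjusted p = 0.720 and 0.374). Polr1b, the second largest subunit, was at 31.0 and 22.9 and 26.5 and 22.8 CPM at 4 h and at 27.8 and 16.5 and 19.7 and 17.4 CPM at 16 h, in the same order of groups. Again replicate 2 of GFP cells at 16 h was the lowest of the 8, and Polr1b was lower only in the fit without it (-0.60, edgeR adjusted p = 0.0269, against -0.28 and 0.510 with it).

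All 3 box C/D snoRNP genes were lower in E47-ER cells at 16 h without the library, and Fbl also with all libraries. Fbl, fibrillarin, the methyltransferase of these particles, was at 52.6 and 43.1 CPM in GFP cells against 43.7 and 43.3 in E47-ER cells at 4 h, and at 63.6 and 63.4 against 39.0 and 34.8 CPM at 16 h. The groups overlapped at 4 h, and at 16 h the 2 GFP libraries were nearly equal and both above every other library. Its log2 fold change at 16 h was -0.79 (SE 0.142, edgeR adjusted p = 0.0387) and -0.80 (adjusted p = 0.000202) without the library. Fbl lies on chromosome 7 (28169710 to 28179269, plus strand). The scaffold protein gene Nop56 was at 147 and 135 and 128 and 118 CPM at 4 h, and at 162 and 177 and 126 and 105 CPM at 16 h, in GFP and E47-ER cells. Its partner Nop58 was at 127 and 122 and 112 and 109.8 CPM at 4 h and at 139 and 163 and 108 and 95.3 CPM at 16 h. In both genes the groups did not overlap at either time, and the E47-ER libraries were the lower ones. Their log2 fold changes at 16 h were -0.56 and -0.57 with all libraries (edgeR adjusted p = 0.104 and 0.0883) and -0.50 and -0.46 without the 1 (adjusted p = 0.00446 and 0.00463).

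The 4 box H/ACA snoRNP genes had a median log2 fold change of -0.90 at 16 h, and -0.68 without the library, where all 4 were called. Dkc1, dyskerin, the pseudouridine synthase of these particles and of the telomerase complex, was at 63.1 and 63.0 CPM in GFP cells against 57.6 and 55.5 in E47-ER cells at 4 h, and at 79.3 and 95.6 against 52.7 and 40 CPM at 16 h. GFP libraries were above E47-ER libraries at each time, and the log2 fold change at 16 h was -0.91 (SE 0.166, edgeR adjusted p = 0.0407), or -0.78 (adjusted p = 0.000247) without the library. Dkc1 lies on chromosome X (75095854 to 75109777, plus strand). Nhp2, an RNA-binding subunit, was at 88.8 and 90.5 and 77.9 and 80.6 CPM at 4 h and at 112 and 196 and 75.4 and 61.8 CPM at 16 h. Its fold change was the one most enlarged by replicate 2 of GFP cells among the 4, -1.17 (SE 0.244, edgeR adjusted p = 0.0657) with it and -0.72 (SE 0.112, adjusted p = 0.000159) without it. The core subunit gene Nop10 was at 41.9 and 40.6 and 39.3 and 36.2 CPM at 4 h and at 48.7 and 77.0 and 35.1 and 32.6 CPM at 16 h. Gar1, the fourth subunit gene, was at 31.1 and 29.0 and 27.7 and 29.2 CPM at 4 h and at 33.6 and 38.9 and 22.8 and 20.9 CPM at 16 h. Both had E47-ER libraries below GFP libraries at 16 h, and Gar1 overlapped at 4 h. Their log2 fold changes at 16 h were -0.89 and -0.73 (edgeR adjusted p = 0.0873 and 0.0521), and -0.53 and -0.63 without the library (adjusted p = 0.00606 and 0.00324).

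**Figure D3:**
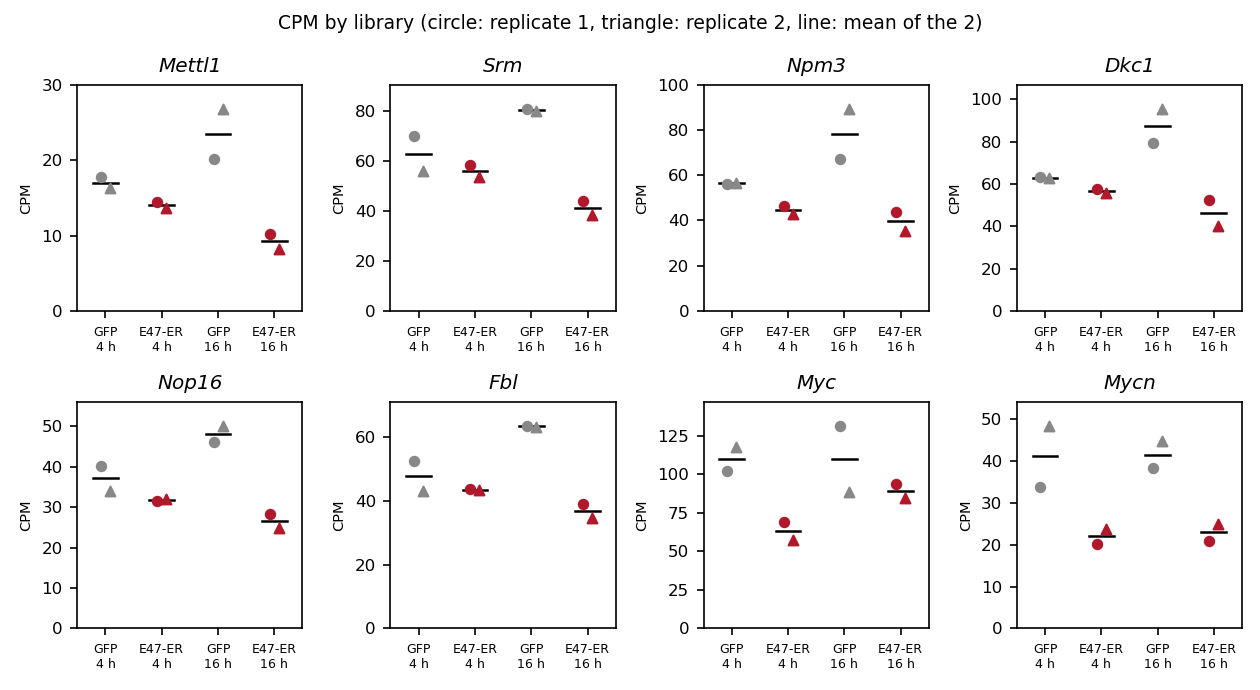
CPM in each library (y axes from 0, circle for replicate 1, triangle for replicate 2, line for the mean of the 2) for the 6 members called at 16 h and for Myc and Mycn. In the 6 members the 2 GFP libraries at 16 h are the highest and, but for replicate 1 of Npm3, the E47-ER libraries at 16 h the lowest, with Mettl1 between 8.24 and 26.9 CPM.

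Among nucleolar organisers and chaperones, 1 of 6 was lower at 16 h with all libraries and 5 of 6 without the 1. Npm3, a nucleoplasmin family chaperone, was at 56.3 and 56.5 CPM in GFP cells against 46.4 and 42.8 in E47-ER cells at 4 h, and at 67.0 and 89.3 against 43.7 and 35.4 CPM at 16 h. The groups were apart at both times, with a log2 fold change of -0.98 (SE 0.175, edgeR adjusted p = 0.0376) at 16 h and -0.77 (adjusted p = 0.000222) without the library. It lies on chromosome 19 (45747734 to 45749591, minus strand). Npm1 was at 876 and 790.2 and 715 and 722 CPM in GFP and E47-ER cells at 4 h, and at 924 and 1365 and 670.2 and 561 CPM at 16 h. Ncl, nucleolin, a nucleolar RNA-binding protein, was at 1117 and 999.6 and 963 and 1007 CPM at 4 h and at 1216 and 1115 and 924 and 779 CPM at 16 h. The groups did not overlap in Npm1 at either time, and in Ncl they overlapped at 4 h and not at 16 h. At 16 h their log2 fold changes were -0.89 and -0.45 (edgeR adjusted p = 0.0794 and 0.145), and -0.59 and -0.52 without the library (adjusted p = 0.000513 and 0.00202). Nolc1, which shuttles between nucleolus and cytoplasm, was lower without the library (-0.48, edgeR adjusted p = 0.00462) and not with it (-0.37). The RNA helicase gene Ddx21 was called in neither fit (-0.11 and -0.21).

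Mybbp1a, a nucleolar MYB-binding protein, and Tsr1, a small subunit assembly factor, were the members farthest below replicate 1 in replicate 2 of GFP cells at 16 h, and were chosen for description after their values were seen. Mybbp1a was at 175 and 145 CPM in GFP cells against 159 and 138 in E47-ER cells at 4 h, and at 182 and 67.5 against 126 and 117 CPM at 16 h. Tsr1 was at 44.8 and 38.2 and 38.3 and 36.6 CPM at 4 h, and at 45.2 and 21.1 and 29.0 and 27.8 CPM at 16 h. In both genes the E47-ER libraries at 16 h lay between the 2 GFP libraries. The log2 fold change of Mybbp1a was -0.05 (SE 0.374) with all libraries and -0.59 (SE 0.112, edgeR adjusted p = 0.00125) without replicate 2. With replicate 1 left out in its place, it was 0.87 (edgeR adjusted p = 8.06e-06), and it was 0.02 with all libraries scaled by their totals alone, so its direction depends on these choices. Tsr1 likewise was at -0.68 (edgeR adjusted p = 0.00114) without replicate 2 and at 0.45 (adjusted p = 0.0217) without replicate 1.

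No small subunit assembly gene was called with all libraries, and 7 of 10 were lower without the 1. Rrp9, a component of the U3 particle that processes the small subunit precursor, was at 47.4 and 35.3 CPM in GFP cells against 34.5 and 37.3 in E47-ER cells at 4 h, and at 50.1 and 50.1 against 32.5 and 29.1 CPM at 16 h. Nob1, the endonuclease of the last cleavage, was at 62.5 and 58.2 and 54.7 and 49.2 CPM at 4 h, and at 63.8 and 85.5 and 49.8 and 43.6 CPM at 16 h. Both had all GFP libraries above all E47-ER libraries at 16 h, with log2 fold changes of -0.70 and -0.67 (edgeR adjusted p = 0.0903 and 0.104), and -0.71 and -0.46 (adjusted p = 0.00309 and 0.0154) without the library. Rrp12, a pre-ribosome export factor, was at 46.3 and 38.4 and 42.6 and 40.5 CPM at 4 h and at 47.8 and 35.9 and 29.3 and 23.9 CPM at 16 h. Its 2 E47-ER libraries at 16 h were the lowest of the 8, and the log2 fold change was -0.66 (edgeR adjusted p = 0.126), or -0.85 (adjusted p = 0.000268) without the library. Wdr43, a component of the early small subunit processome, was at 90.0 and 77.6 and 78.9 and 74.4 CPM at 4 h and at 91.0 and 83.3 and 73.3 and 58.9 CPM at 16 h. Heatr1, another processome scaffold, was at 86.7 and 65.6 and 74.3 and 73.9 CPM at 4 h and at 76.1 and 46.9 and 56.4 and 53.4 CPM at 16 h. Without the library both were lower (-0.47 and -0.48, edgeR adjusted p = 0.0188 and 0.0220), as were Utp20 (-0.72, adjusted p = 0.00893) and Tsr1, while Imp4, Nop14 and Noc4l had values of -0.28, -0.22 and -0.29 and were called in neither fit.

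Among the 12 large subunit assembly genes, Nop16 was lower at 16 h with all libraries and 9 were lower without the 1. Nop16, a nucleolar protein of early large subunit particles, was at 40.3 and 34.0 CPM in GFP cells against 31.6 and 32.0 in E47-ER cells at 4 h, and at 46.1 and 50.1 against 28.3 and 24.8 CPM at 16 h. The groups did not overlap at either time, and the log2 fold change at 16 h was -0.86 (SE 0.145, edgeR adjusted p = 0.0299), or -0.80 (adjusted p = 0.000294) without the library. It lies on chromosome 13 (54584185 to 54590090, minus strand). Ebna1bp2, an early large subunit factor, was at 95.03 and 97.3 and 88.2 and 90.3 CPM at 4 h and at 118 and 163 and 90.4 and 75.7 CPM at 16 h. Gnl3, nucleostemin, a nucleolar GTP-binding protein, was at 59.5 and 48.3 and 52.5 and 49.9 CPM at 4 h and at 59.4 and 56.9 and 41.0 and 35.7 CPM at 16 h. Both had every GFP library above every E47-ER library at 16 h, with log2 fold changes of -0.76 and -0.60 (edgeR adjusted p = 0.0846 and 0.0985), and -0.52 and -0.64 (adjusted p = 0.00324 and 0.00232) without the library.

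Pes1, Bop1 and Wdr12 encode the 3 subunits of the PeBoW complex, which acts in large subunit maturation. Bop1 was at 102 and 98.3 CPM in GFP cells against 89.6 and 88.3 in E47-ER cells at 4 h, and at 109 and 86.4 against 86.5 and 79.8 CPM at 16 h. Replicate 2 of GFP cells at 16 h lay just below the higher E47-ER library, and without it Bop1 was lower (-0.40, edgeR adjusted p = 0.0144), as was Pes1 (-0.40, adjusted p = 0.0272). Wdr12 was at -0.36 (adjusted p = 0.0980) and was not called. Without the library Rrs1 (-0.64), Ppan (-0.62), Nop2 (-0.54) and Rrp1b (-0.45) were lower as well, with edgeR adjusted p from 0.00233 to 0.0215. Nip7 was not called (-0.69 with all libraries and -0.40 without the 1). Wdr74 was at 1.33 and 1.53 CPM in GFP cells against 1.66 and 0.719 in E47-ER cells at 4 h, and at 1.07 and 4.39 against 1.13 and 0.922 CPM at 16 h. Its value of -1.28 (SE 0.669) at 16 h rests on replicate 2 of GFP cells and was -0.08 (SE 0.550) without it.

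**Figure D4:**
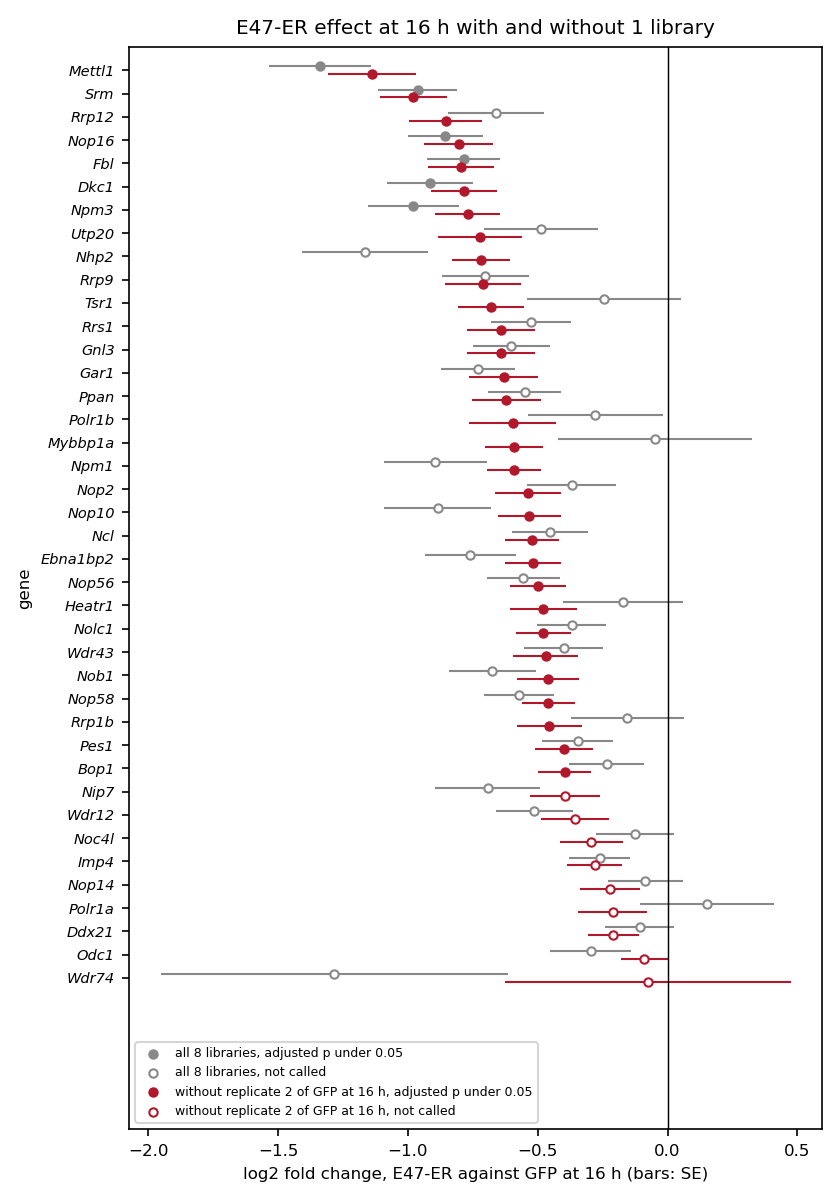
Log2 fold change of E47-ER against GFP cells at 16 h (x axis, bars show the SE) for each of the 40 members (y axis), with all 8 libraries in grey and without replicate 2 of GFP cells at 16 h in red, filled where edgeR's adjusted p was under 0.05. The 6 filled grey points, from Mettl1 at -1.34 to Fbl at -0.79, are filled in red as well, and 31 red points are filled in all.

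Whether the E47-ER effect differed between 16 h and 4 h was tested as the difference of the 2 effects. By edgeR's quasi-likelihood test 0 of the 40 members passed, where 0% of all genes tested did, and 0 passed without replicate 2 of GFP cells at 16 h, where 0.0212% of all genes tested were called lower. Unadjusted, 14 members had a p under 0.05, and DESeq2 called 0. The difference was below 0 in 37 members, with a median of -0.39, or -0.41 without the library. Mettl1 had the smallest p, with a difference of -1.06 (SE 0.272, edgeR adjusted p = 0.699), followed by Srm at -0.79 (SE 0.212) and Gar1 at -0.65 (SE 0.199), both at the same adjusted p. With replicate 1 of GFP cells at 16 h left out in place of replicate 2, 18 members had a difference below 0 that was called and 3 (Polr1a, Mybbp1a and Tsr1) one above 0, where 17.5% of all genes tested were called lower and 18% higher. The calls in this test thus rested on which GFP library of 16 h was kept.

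Between 4 and 16 h in GFP cells, whether members were called depended on which library of 16 h was kept. With all libraries 0 of 40 were called by edgeR, where 0% of all genes tested were higher, and without replicate 2 of GFP cells at 16 h it was 0 again, where 0.00707% were higher. DESeq2 called 0, and 10 members had an unadjusted p under 0.05. The log2 differences were above 0 in 27 members with all libraries, with a median of 0.15 in both fits. Libraries did not overlap in 18 members, all of them higher at 16 h, against 18.6% of all genes tested. The smallest p belonged to Nhp2 (0.78, edgeR adjusted p = 0.500), Ebna1bp2 (0.55) and Nop10 (0.60), genes with higher levels in replicate 2 of GFP cells at 16 h than in replicate 1. Without that library these values were 0.32, 0.30 and 0.24, and the highest of the set was Fbl at 0.41. With replicate 1 left out in its place, 16 members were higher and 7 lower at 16 h by the same test, where 21.4% of all genes tested were higher and 20.4% lower.

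In E47-ER cells the result between 4 and 16 h depended on which libraries entered the fit. With all libraries 0 of 40 members were called by edgeR, where 0% of all genes tested were lower, 7 had an unadjusted p under 0.05, and DESeq2 called 0. Without replicate 2 of GFP cells at 16 h, which is in neither group compared, 7 members were lower at 16 h, where 1.34% of all genes tested were. Without replicate 1 in its place, 6 were lower, where 1.14% of all genes tested were. In a fit of the 4 E47-ER libraries alone, 11 were lower, where 3.1% of all genes tested were. The 7 were Rrp12, Mettl1, Srm, Heatr1, Gnl3, Tsr1 and Utp20, and the fit of the 4 libraries added Polr1b, Gar1, Wdr12 and Mybbp1a. Rrp12 had the smallest p, with a log2 difference of -0.65 (SE 0.106, edgeR adjusted p = 0.000271) in the 4 libraries, and -0.65 (SE 0.185, adjusted p = 0.929) with all 8. Mettl1 was at -0.61 (adjusted p = 0.0118) and Srm at -0.44 (adjusted p = 0.00476) in the 4 libraries. Differences were below 0 in 39 members, with a median of -0.22, and libraries did not overlap in 33 members that were lower at 16 h, against 24.5% of all genes tested. Odc1 alone was above 0 (0.12).

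The wider pathway was read from 174 further genes of ribosome biogenesis, polyamine synthesis, tRNA methylation and their known regulators, of which 172 were tested. At 4 h 0 were called with all libraries, where 0.0147% of all genes tested were called lower. Their median log2 fold change at 4 h was -0.04, both with all libraries and without replicate 2 of GFP cells at 16 h. The count of calls at 4 h changed when that library was left out, through Myc, Mycn and Mxi1, described below. At 16 h 1 was lower with all libraries and none was higher, where 0.337% of all genes tested were lower and 1.25% higher. It was Rcl1, a factor of small subunit precursor cleavage (-0.67, SE 0.127, edgeR adjusted p = 0.0455). Without the library 46 were lower and 2 higher, where 4.53% of all genes tested were lower and 4.39% higher, with a median log2 fold change of -0.28 over the 172, and -0.31 with all libraries. By list, 15 of 47 small subunit genes, 13 of 47 large subunit genes, 5 of 18 RNA polymerase I genes, 3 of 10 snoRNP assembly genes, 3 of 11 polyamine genes, 2 of 13 exosome genes, 2 of 14 tRNA methylation genes and 3 of 12 regulators were lower in that fit. The smallest p among these belonged to Noc2l (-0.64), Nsun2 (-0.64), Esf1 (-0.67), Rrp15 (-0.83), Rcl1 (-0.69), Ltv1 (-0.66), Myc (-0.57) and Polr2e (-0.48). Wdr4, whose product is the partner subunit of Mettl1 and which was singled out after its value was seen, was at -0.29 (edgeR adjusted p = 0.422) with all libraries and was lower without the 1 (-0.55, adjusted p = 0.0373). Mxd1, a MAX partner that opposes MYC, was higher (0.47, adjusted p = 0.0110), as was Sat1, the polyamine acetyltransferase (0.38, adjusted p = 0.0428), whose value with all libraries was -0.69.

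Myc and Mycn are described because their products are known regulators of these genes. Myc was at 101.8 and 117.6 CPM in GFP cells against 68.7 and 57.2 in E47-ER cells at 4 h, and at 131.2 and 88.3 against 93.6 and 84.2 CPM at 16 h. The groups were apart at 4 h and overlapped at 16 h through replicate 2 of GFP cells. The log2 fold change was -0.80 (SE 0.204, edgeR adjusted p = 0.359) at 4 h and -0.31 (SE 0.203, adjusted p = 0.358) at 16 h. With all libraries Myc was thus not called at either time. Without replicate 2 of GFP cells at 16 h the values were -0.80 at 4 h and -0.57 at 16 h. That library is in neither group compared at 4 h, where leaving it out kept the value and lowered the SE to 0.099. Whether Myc was called at 4 h thus depended on whether that library entered the fit. Mycn was at 33.9 and 48.4 CPM in GFP cells against 20.3 and 23.7 in E47-ER cells at 4 h, and at 38.3 and 44.8 against 21.0 and 24.96 CPM at 16 h. Its groups did not overlap at either time, with log2 fold changes of -0.91 and -0.85 (edgeR adjusted p = 0.237 and 0.0953), and -0.91 and -0.74 (adjusted p = 0.00241 and 0.0196) without the library. Mxi1, like Mxd1 a MAX partner that opposes MYC, had values of -0.63 at 4 h and -0.44 at 16 h without the library. With all libraries Mxi1 was not called at either time. Mxd1 moved the other way, with a value above 0 at 16 h without the library. At 4 h the values of Mycn and Mxi1 hardly changed when that library was left out, while their SE fell. Whether they were called at 4 h likewise depended on that library. In the members with CACGTG in the promoter window, 1 of 8 was lower at 16 h with all libraries and 7 of 8 without the 1. In the 26 members whose window lacks it, the counts were 3 and 18. Over all genes tested, 0.337% and 4.53% were lower in these fits. The median log2 fold change with CACGTG was -0.36 against -0.56 without it in the fit of all libraries, and -0.57 against -0.49 in the fit without the library, so the order of the medians turned between the fits. Of the 6 members with CAGCTG, 0 and 4 were lower in the 2 fits, with medians of -0.51 and -0.43.

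The members followed one another across the 8 libraries to different degrees. Pearson's r of a member's log2 CPM with the members' mean z-score was 0.979 for Gnl3, 0.978 for Srm and 0.971 for Ncl, and 0.182 for Mybbp1a and -0.0239 for Polr1a. The 5 other genes most like the members' mean, of all genes tested, were Ruvbl1 (r = 0.982), Usp39 (0.979), Ccr7 (0.978), Pno1 (0.978) and Rtcb (0.976). These are descriptions over 8 libraries that share their groups and their scaling. Ruvbl1 belongs to a helicase complex that helps to build snoRNPs and Pno1 acts in small subunit assembly, Usp39 is a splicing factor, Rtcb is an RNA ligase of tRNA splicing and Ccr7 is a chemokine receptor.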

How the data were processed

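Bulk RNA sequencing was deposited by the authors as 1 table of raw counts (whole numbers per Ensembl gene in each library, not normalized). Per the submitters' processing notes, mm10 was the build and DESeq2 was among the tools. Aligner, counter, strandedness and gene annotation were not given in the sources used here. GENCODE M21 (GRCm38) supplied symbols, positions and lengths for 50462 of the 50686 gene IDs.

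The model was edgeR 4.0.16 in R 4.3.3. filterByExpr, with a count minimum of 10, kept 13644 genes and all 40 members. Libraries of 8813782 to 18677675 counts were scaled by TMM. A robust quasi-likelihood fit with 1 mean per group took in all 8 libraries and all genes kept. Benjamini-Hochberg adjustment of two-sided p-values ran over all of them, with calls at an adjusted p under 0.05. The SE was taken as the size of the log2 fold change over the square root of F. Without replicate 2 of GFP cells at 16 h, 14146 genes were kept. The fitting function was also run on simulated counts with known changes. These held no single aberrant library and no length effect, so they do not bear on calls that rest on 1 library.

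The members, the gene lists and the alternatives were chosen with earlier results of these data known. By rule, values in every library are given for members called with all libraries or without replicate 2 of GFP cells at 16 h. Of these at most 16 were taken, by smallest p at 16 h. The rule also took the 3 members of smallest p in each comparison and those of highest or lowest level per kilobase. It further took the 2 members of highest mean CPM in each role group. The labels name no pairing by replicate number, and the main model used none. Over all genes tested, deviations of same-numbered libraries correlated at -0.0901 to 0.202 between groups. The members' median log2 difference of replicate 2 from replicate 1 was below 0 in every group. It was -0.16 in GFP and -0.058 in E47-ER cells at 4 h, and -0.044 and -0.175 at 16 h. Whether same-numbered libraries share an origin was not tested. Alternatives were DESeq2 1.42.0, limma 3.58.1 (voom with quality weights), other scalings, filters and thresholds, and an offset by summed exon length. Others were a replicate block, only the libraries compared, and leaving out each library. Copies were found with blastn 2.17.0 at 95% identity over 300 bases, and figures were drawn with matplotlib 3.10.9.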

Additional observations from a re-analysis of the deposited data

How the results depend on the processing

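The count of members lower at 16 h, 6 with all libraries, was 17 with DESeq2, 15 with no filter on low counts and 14 at an adjusted p under 0.1. It was 1 with scaling by library totals and 0 at an adjusted p under 0.01, with limma voom or in the 4 libraries of that time. Leaving out 1 library gave 0 to 31, and 0 to 3 members higher. A replicate block within each time gave 0 lower and 1 block across all groups gave 4, while the labels name no such pairing. With a length offset 5 were lower, 3 of them among the 6. Leaving out 1 library gave 0 to 18 members lower and 0 to 3 higher in the difference of effects, 0 to 16 higher and 0 to 7 lower over time in GFP cells, and 0 to 7 lower over time in E47-ER cells. That last count, 0 with all libraries, was 11 in its own 4 libraries and 5 with voom, and 1 member was higher over time in GFP cells with no filter. The members' median at 16 h was -0.416 with library totals and -0.641 to -0.44 when 1 library was left out. The same ranges were -0.201 to -0.0345 at 4 h, 0.0577 to 0.214 over time in GFP cells (0.0355 with library totals) and -0.339 to -0.12 over time in E47-ER cells. When 1 library was left out, values at 16 h ran from -0.5928 to 0.867 for Mybbp1a, -0.679 to 0.446 for Tsr1, -0.4547 to 0.257 for Rrp1b, -0.4786 to 0.247 for Heatr1 and -0.596 to 0.188 for Polr1b, lowest without replicate 2 and highest without replicate 1 of GFP cells at 16 h. Mybbp1a was also above 0 with library totals (0.022), with the block across groups (0.0578) or within times (0.12), with voom (0.117) and without replicate 2 of E47-ER cells at 16 h (0.0076). Mettl1 was called in 10 of 19 settings, Fbl in 9, Srm, Dkc1 and Nop16 in 8 and Npm3 in 7, and all 6 were below 0 in all 19. Over all genes, 171 were higher and 46 lower at 16 h and 37 and 2 at 4 h. These were 412 and 532, and 100 and 15, with DESeq2. They were 927 and 889, and 127 and 38, with no filter, and 40 and 15, and 267 and 138, with voom. With only the libraries of a time they were 6 and 0, and 276 and 166. Without replicate 1 of GFP cells at 16 h, 3503 were higher and 3519 lower at 16 h, and without replicate 2, 621 and 641. Leaving out any other library gave 15 to 59 higher and 0 to 5 lower. With the block within each time 50 were higher and 4 lower at 16 h, and 11 and 0 at 4 h. At an adjusted p under 0.01 or 0.1 the counts at 16 h were 45 and 2, and 309 and 191. Without replicate 1 of GFP cells at 16 h, the difference of effects had 2600 higher and 2524 lower and the time comparison in GFP cells 3087 and 2947, against 0 with all libraries. Over time in E47-ER cells 2 and 0 became 552 and 405 in its own 4 libraries. The causes of these differences were not tested. With 2 libraries a group, 1 aberrant library can make or remove most calls, and Wdr74, on 10 to 33 counts a library, is limited by depth.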
